A study of Mus musculus with 28 samples.

Results

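Six3 and Six2 are neighbouring genes on mouse chromosome 17, and the chromatin contacts of their gene bodies and flanks were followed for each restriction fragment. The fragments were those with their midpoint in the annotated span of Six3 (chromosome 17, 85613608 to 85626191, mm10) or of Six2 (85662736 to 85688254), with 5 kb on each side. There were 122 such fragments with reads in at least 1 of 4 libraries, 42 over Six3 and 80 over Six2, of 99194 fragments read in the whole series. The assay was 4C-seq, a form of chromosome conformation capture: crosslinked chromatin is cut with NlaIII, religated and cut again with DpnII, and inverse PCR from 1 chosen fragment, the viewpoint, then yields the fragments ligated to it. All 4 libraries came from E14Tg2a, a line of mouse embryonic stem cells (ESC), which the labels list as grown in 2i+LIF while their growth protocol describes serum with LIF. The viewpoints were the Six2 promoter (fragment 85689020 to 85689800) and PE Six3, a poised enhancer of Six3 (85485041 to 85485766), each in wild type (WT) cells and in cells with the genotype del36, a deletion of the domain boundary that separates Six3 from Six2. How many clones carry the deletion is not stated in the labels. Each condition had 1 library without a replicate, so every difference below is between libraries, no test between conditions was possible and no p-value is given.

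Six3 and Six2 encode related homeodomain transcription factors, named after sine oculis of Drosophila. Six3 acts in the forebrain and the eye, and Six2 keeps nephron progenitors of the kidney in a self-renewing state. Both are silent in ESC, where the CpG-rich starts of such developmental genes are typically bound by Polycomb complexes. Poised enhancers are distal elements that are marked but inactive in ESC, and they can already touch their target promoter there. A domain boundary is a stretch that limits contacts between the chromatin on its sides.

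The start sites show how finely the assay can resolve each promoter, because NlaIII cuts at CATG. The sequences are from RefSeq (GRCm38.p6, the assembly of mm10), each running 5′ to 3′ along its gene from 250 bases before the start site to 50 past it, with CATG and the DpnII motif GATC in capitals. They are shown because the fragment ends over these promoters follow from them. The Six3 promoter is chr17:85620584-85620883 on the + strand, that of Six3os1, a long noncoding RNA gene antisense to Six3, is chr17:85618347-85618646 on the - strand, and that of Six2 is chr17:85688205-85688504 on the - strand.
Six3: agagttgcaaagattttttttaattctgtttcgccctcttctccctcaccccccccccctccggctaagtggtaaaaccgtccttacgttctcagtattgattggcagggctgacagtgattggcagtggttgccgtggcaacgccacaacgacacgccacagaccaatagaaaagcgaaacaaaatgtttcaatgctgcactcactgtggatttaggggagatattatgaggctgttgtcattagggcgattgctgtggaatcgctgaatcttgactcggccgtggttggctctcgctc
Six3os1: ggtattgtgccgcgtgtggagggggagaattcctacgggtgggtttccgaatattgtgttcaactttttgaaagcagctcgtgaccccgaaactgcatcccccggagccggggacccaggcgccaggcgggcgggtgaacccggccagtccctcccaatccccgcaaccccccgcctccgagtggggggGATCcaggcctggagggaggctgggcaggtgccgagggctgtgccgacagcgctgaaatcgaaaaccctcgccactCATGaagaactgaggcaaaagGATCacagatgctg
Six2: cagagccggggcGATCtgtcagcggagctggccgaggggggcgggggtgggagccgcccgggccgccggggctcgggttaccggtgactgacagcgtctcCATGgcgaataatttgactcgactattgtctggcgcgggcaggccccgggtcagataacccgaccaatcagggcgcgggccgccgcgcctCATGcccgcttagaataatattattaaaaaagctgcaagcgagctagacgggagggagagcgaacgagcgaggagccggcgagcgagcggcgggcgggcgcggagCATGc
The Six3 window holds no CATG and lies on 1 fragment, 85620336 to 85621238. The Six2 window holds 3 CATG and 1 GATC and is cut into 3 fragments, and the Six3os1 window holds 1 CATG and 2 GATC. All 4 CATG sites coincide with fragment ends in the files and none of the 3 GATC sites does: fragment ends follow the NlaIII motif here. Of 32851 promoter windows of the same length in the RefSeq table, 61.1% hold CATG and 48.0% hold GATC, both palindromes that read alike on either strand. The windows hold 14 CpG at Six3, 20 at Six3os1 and 37 at Six2, against a median of 7 over all promoter windows.

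The values are shares of local reads, meaning reads within 1 Mb of the viewpoint with 10 kb on each side of it left out. Local reads numbered 165248 and 238250 in the WT and del36 libraries of the Six2 promoter, and 1218764 and 355383 in those of PE Six3. A count of 0 allows a share of up to 0.0018%, 0.0013%, 0.00025% and 0.00084% in the same order (3 reads), and intervals are 95% Wilson intervals; both cover counting error only, since PCR copies were not marked. The deleted stretch, 85629635 to 85666796, was left out of the fragments compared in every ratio, which removed 20 of the 122 and kept 39 over Six3 and 63 over Six2. Its reads stayed in the local reads of which shares are taken, so WT shares are lower than they would be without it. Its Six2 fragments alone held 2.71% (WT) and 0.053% (del36) of local reads from the Six2 promoter. From PE Six3 they held 0.662% and 0. The size of this effect on the ratios was not computed. From the Six2 promoter the 10 kb around the viewpoint took away a further 23 fragments of Six2, and 40 remained. The Six3 start site (85620834) is 68.6 kb from the Six2 promoter viewpoint and 135 kb from PE Six3 on the annotated chromosome. Without the deleted stretch the first distance is 31.4 kb, while the second is unaffected.

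Many Six3 fragments were read in every library. Of its 38 fragments that reached 10 reads in any library, 17 (44.7%) reached 10 reads in all 4, from both viewpoints and in both genotypes. Over all 2459 fragments in range of both viewpoints the background was 0.935%, or 23 fragments, and 20 of these 23 lay in Six3 or Six2, 17 and 3 of them. The other 3 lay in Camkmt (2), a calmodulin methyltransferase gene, and Srbd1 (1). Between PE Six3 and the Six3 flank 315 fragments reached 10 reads somewhere and 0 did so in all libraries, and between the Six2 flank and Srbd1 0 of 481 did. No test was made of these shares, since neighbouring fragments share their chromatin and their libraries.

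The 17 fragments ran from the upstream flank to the downstream flank of Six3. The fragment over the Six3 start site (85620336 to 85621238) was among them, with 107 (WT) and 375 (del36) reads for the Six2 promoter viewpoint, and 339 and 109 for PE Six3. It was not a tall one: its shares were 0.0648% (WT) and 0.157% (del36) for the Six2 promoter viewpoint, and 0.0278% and 0.0307% for PE Six3. The fragment over the Six3os1 start site (85618382 to 85619399) had 1873 and 4132 reads for the Six2 promoter viewpoint, and 504 and 2875 for PE Six3. It was among the 3 Six3 fragments with most reads in each Six2 promoter library, and had the most in the del36 library of PE Six3.

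**Figure D1:**
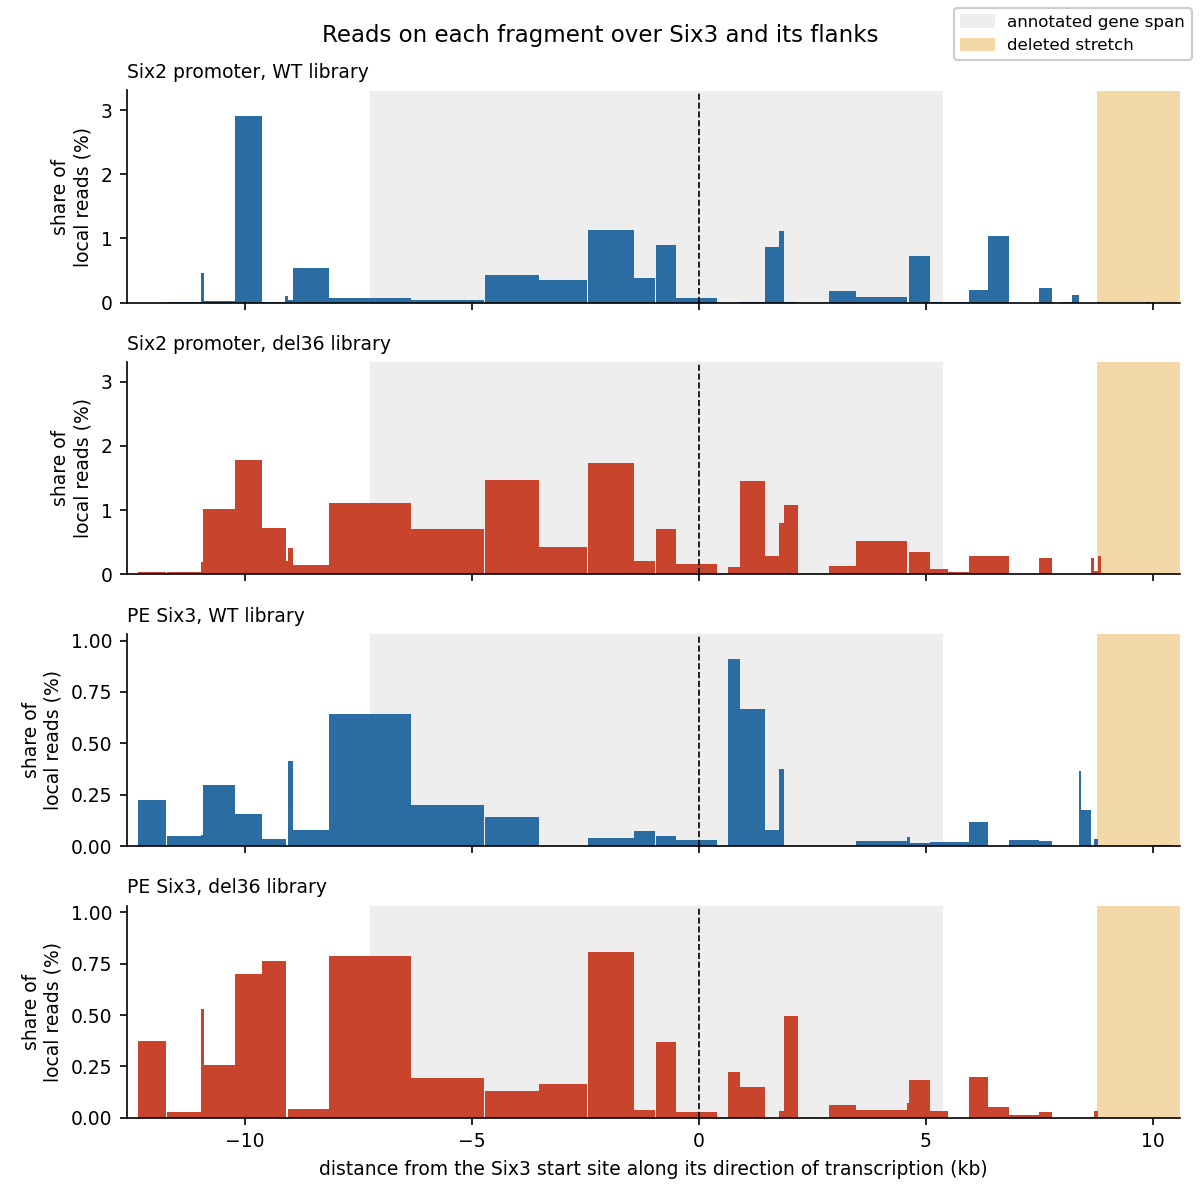
Share of local reads (%) on each Six3 fragment in the 4 libraries, against distance from the Six3 start site (kb); bars are as wide as their fragments and both libraries of a viewpoint share a y axis. In the Six2 promoter WT library 1 fragment stands at 2.91%, whereas the del36 library has many bars of similar height.

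From the Six2 promoter, the Six3 stretch held more of the reads in del36 than in WT, and held them on more fragments. It took 12.0% of local reads in WT (19858 reads, interval 11.9% to 12.2%) and 17.1% in del36 (40674 reads, 16.9% to 17.2%), 1.42 times as much. The log2 ratio was 0.51 (exact conditional interval 0.48 to 0.53). A ratio of this size was not particular to Six3: Camkmt, on the far side of PE Six3, went from 11.6% to 16.4%, or 1.41 times, while Srbd1 stood at 0.888 times and Prkce at 1.20 times. Of the 39 kept fragments 24 reached 10 reads in WT and 32 in del36, and the median fragment held 105 reads in WT and 595 in del36. More fragments in del36 was not particular to Six3 either: of all local fragments outside the deleted stretch 429 reached 10 reads in WT and 718 in del36. The direction depended on the measure: by the length of fragments with reads, as a share of all covered local length, the log2 ratio was -0.27. The covered length of Six3 itself was larger in del36, 92.5% of the stretch against 85.0% in WT. The negative ratio thus came from a larger covered length over the whole local range.

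The tallest Six3 fragment from the Six2 promoter was the same in both genotypes, 85610621 to 85611201 in the upstream flank. It held 4816 reads (2.91%) in WT against 4247 (1.78%) in del36. It made up 24.3% of the Six3 reads in WT against 10.4% in del36. Without the tallest fragment in each library the log2 ratio of the stretch was 0.75. In WT the next were 85618382 to 85619399 with 1.13% and 85622598 to 85622710 with 1.12%, which held 1.73% and 0.801% in del36. In del36 the third was 85616114 to 85617317, with 1.47% against 0.430% in WT. The named fragments thus differed in both directions.

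Several fragments nearly empty in WT were tall in del36 from the Six2 promoter. The fragment 85621747 to 85622289, 1.18 kb past the start site, had 3 reads in WT against 3482 in del36, a log2 ratio of 9.65 with a counting interval of 8.11 to 11.9. Also past the start site, 85622715 to 85623019 had 1 and 2575 reads (10.8, interval 8.32 to 16.1), while the pair of fragments between them had 1433 and 1846 reads in WT. In the upstream flank 85611206 to 85611727 had 2 and 1705 (9.21, interval 7.35 to 12.3). The opposite also occurred: 85629064 to 85629204 had 186 reads in WT and 0 in del36, at least 89.4-fold lower, 85628846 to 85629059 had 26 and 0, at least 12.5-fold lower, and 85611885 to 85612685 had 900 and 354 (-1.87, interval -2.06 to -1.70). The first 2 of these lie within 1 kb of the deleted stretch.

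From PE Six3 the Six3 stretch also held a larger share in del36, by less. It took 5.38% in WT (65596 reads, 5.34% to 5.42%) and 6.89% in del36 (24480 reads, 6.81% to 6.97%), a log2 ratio of 0.36 (0.33 to 0.38), or 1.28 times. Srbd1 and Prkce, beyond Six2, had ratios as large, 1.29 and 1.40 times, and Camkmt 0.906 times. By the share of covered local length the log2 ratio for Six3 was -0.39, although covered length rose from 84.7% of the stretch in WT to 90.3% in del36. By the median fragment the ratio was 0.057, with a share of 0.0430% in WT and 0.0447% in del36, and 30 and 32 of 39 fragments reached 10 reads. Over all local fragments 840 and 1387 did so. With 25 kb left out around the viewpoint the ratio was 0.31.

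Of the 3 tallest Six3 fragments from PE Six3, the first pair lay past the start site in WT, and all lay before it in del36. In WT the tallest were 85621480 to 85621742 with 11090 reads (0.910%) and its neighbour 85621747 to 85622289 with 8115 (0.666%), 0.78 and 1.18 kb past the start site, followed by 85612690 to 85614482 with 7848 (0.644%), which spans the annotated start of the Six3 span. In del36 the first pair held 789 and 527 reads, 0.222% and 0.148%, log2 ratios of -2.04 and -2.17. In del36 the tallest were 85618382 to 85619399 with 2875 reads (0.809%, against 0.0414% in WT), 85612690 to 85614482 with 2803 (0.789%) and 85611206 to 85611727 with 2720 (0.765%, against 0.0341%). Picking fragments by height in a library itself favours lower shares in the other. The fragment over the annotated end of Six3 (85625932 to 85626324) had 245 and 118 reads, 0.0201% and 0.0332%.

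At the extremes from PE Six3, the fragment 85622715 to 85623019 had 1 read in WT and 1761 in del36 (log2 ratio 12.6, interval 10.1 to 17.9). Another pair had no WT read: 85617322 to 85618377 had 0 and 581 reads, at least 664-fold higher, and 85623708 to 85624304 with 0 and 214, at least 245-fold higher. On the other side 85629262 to 85629467 had 2151 and 0 reads, at least 209-fold lower, 85622294 to 85622593 had 956 and 0, at least 92.9-fold lower, and 85629209 to 85629257 had 4472 and 16 (-6.35, interval -7.16 to -5.65). The fragments at 85629209 and 85629262 lie within 1 kb of the deleted stretch and had 0 reads in both Six2 promoter libraries.

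Along Six3 the ratio was not even. From PE Six3 the 5 kb before the annotated span held 1.95% in WT and 3.53% in del36 (log2 ratio 0.86), and the part of the span before the start site 0.537% and 1.74% (1.70). From the start site to the gene end the shares were 2.13% and 1.29% (-0.73), and in the kept part of the downstream flank 0.765% and 0.335% (-1.19). The negative value inside the gene rested on the tall WT fragments, since the median fragment there held 0.0339% in WT and 0.0654% in del36, whereas in the downstream flank the median too was lower in del36, 0.0048% against 0.0217%. From the Six2 promoter the same parts gave 0.45, 0.71, 0.69 and -0.43. Both viewpoints thus had a lower share in del36 in the flank that borders the deletion, 1.59% and 1.17% from the Six2 promoter, although the median fragment there from the Six2 promoter, at 0.0003% and 0.0164%, differed the other way.

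**Figure D2:**
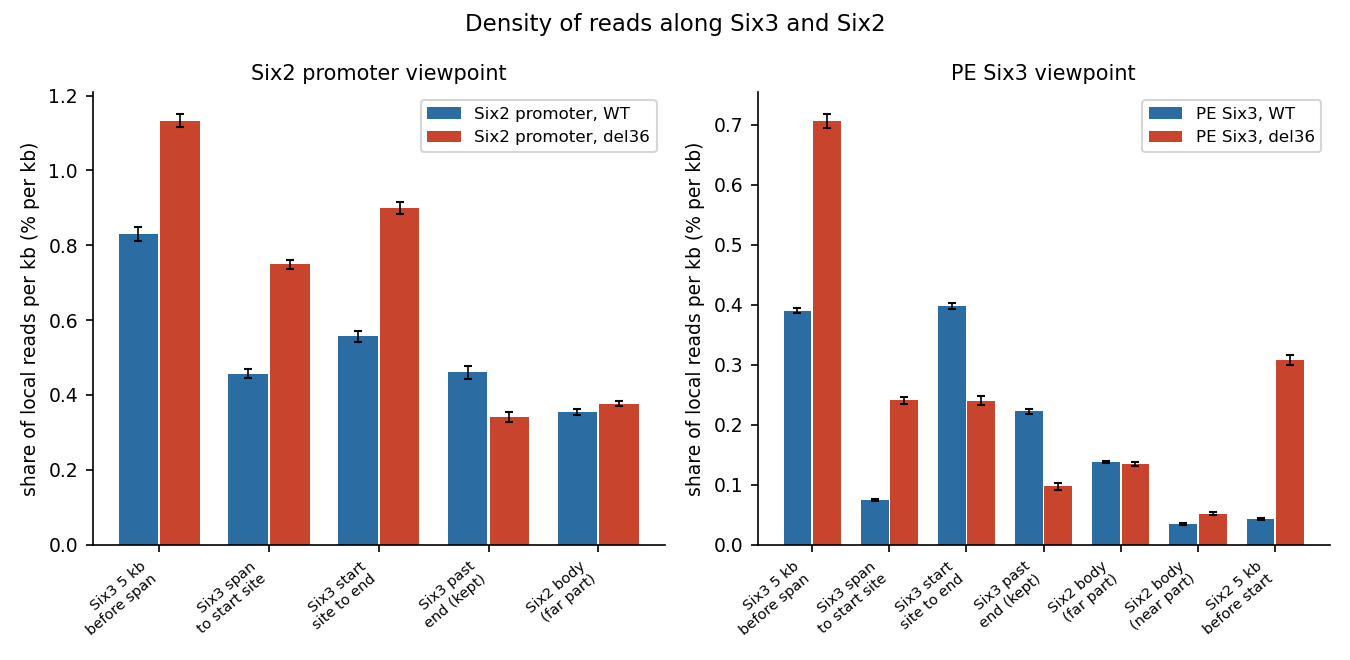
Share of local reads per kb (%, y axis from 0) in parts of Six3 and Six2, WT in blue and del36 in red; error bars are 95% Wilson intervals, which cover counting error only. From PE Six3 the Six3 parts before the start site and the part before the Six2 start are higher in del36, and the Six3 parts past the start site are lower.

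Six2 as seen from its own promoter differed little in sum. The kept part of Six2 beyond the 10 kb left out, 85666797 to 85679409, held 4.48% in WT (7396 reads, 4.38% to 4.58%) and 4.74% in del36 (11302 reads, 4.66% to 4.83%), a log2 ratio of 0.08 (0.04 to 0.13). The local reads of WT include the deleted stretch, whose Six2 fragments alone held 2.71% of them, and a ratio this small was not corrected for it. This part of Six2 lies on the Six2 side of the deletion, so its distance to the viewpoint is the same in both genotypes. Its median fragment held 2 reads in WT and 68 in del36, 17 and 22 of 40 fragments reached 10 reads, and the top 3 fragments held 52.5% of its reads in WT and 26.6% in del36. Over all local fragments 429 and 718 reached 10 reads. By the share of covered local length the log2 ratio was -0.12, and without the tallest fragment it was 0.34. The covered length itself was larger in del36, 66.9% of this part against 55.3% in WT.

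The 3 Six2 fragments picked as tallest in WT were lower in del36, an outcome that picking by WT height itself favours. They were 85678199 to 85678629 with 1801 WT reads against 816 in del36 (1.09% and 0.343%), 85677107 to 85677421 with 1110 and 1034 (0.672% and 0.434%) and 85667164 to 85667187 with 968 and 0 (0.586% in WT). In del36 the tallest was 85666899 to 85667159, the second kept fragment past the deletion, with 1095 reads against 41 in WT (log2 ratio 4.21, interval 3.76 to 4.70). The largest ratios, ranked with counts below 3 set to 3, were at 85674096 to 85674435 with 0 and 880 reads, at least 204-fold higher, 85674934 to 85675090 with 2 and 837 (8.18, interval 6.32 to 11.2) and 85672570 to 85672823 with 2 and 760 (8.04, interval 6.18 to 11.1). The lowest, each on a fragment shorter than 100 bp, were at 85667164 to 85667187, at least 465-fold lower, though from PE Six3 it had 0 reads in WT and 980 in del36, 85668249 to 85668283 with 338 and 0, at least 162-fold lower, and 85671492 to 85671559 with 208 and 8 (-5.23, interval -6.46 to -4.22).

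**Figure D3:**
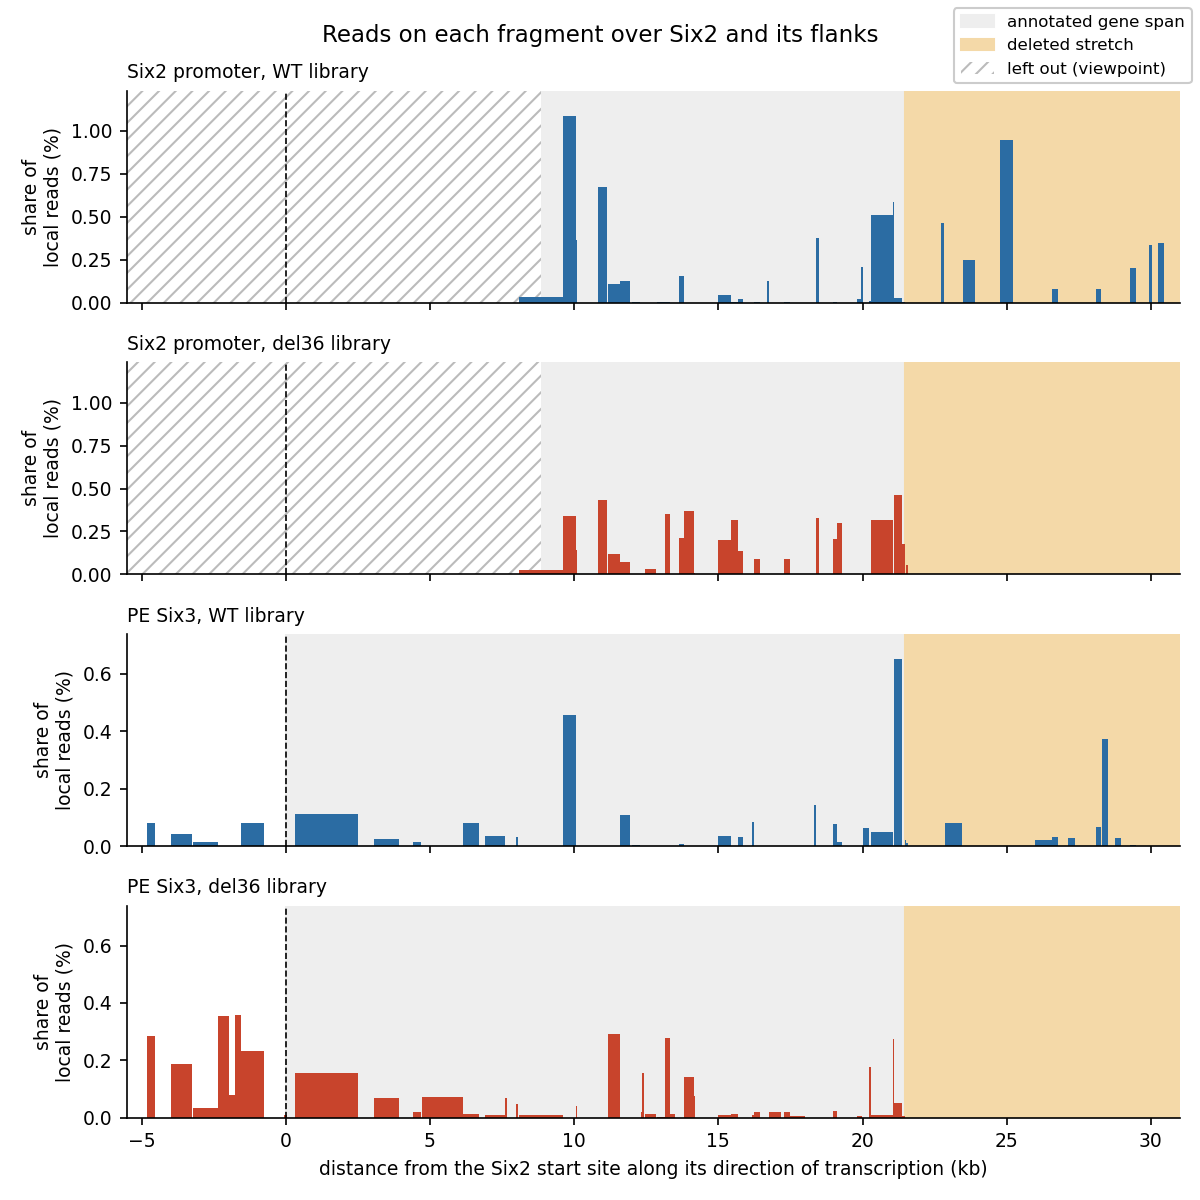
Share of local reads (%) on each Six2 fragment in the 4 libraries, against distance from the Six2 start site (kb, positive into the gene); the hatched part was left out and libraries of a viewpoint share a y axis. From PE Six3, fragments before the start site are taller in del36. That no del36 bar of this viewpoint lies in the deleted stretch follows from how the stretch was defined.

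From PE Six3 the Six2 stretch held 2.25% in WT (27413 reads, 2.22% to 2.28%) and 3.70% in del36 (13141 reads, 3.64% to 3.76%), a log2 ratio of 0.72 (0.69 to 0.75), or 1.64 times. It was largest in the flank before the start site and near 0 in the far part of the gene. The 5 kb before the start site held 0.217% and 1.54%, 7.09 times as much (log2 ratio 2.83, interval 2.76 to 2.89), and the near 8.85 kb of the body 0.302% and 0.458% (0.60). The far 12.6 kb of the body, measured from both viewpoints, held 1.73% and 1.70% (-0.03, interval -0.07 to 0.02). The whole kept body gave 0.087, and the share of covered local length -0.13 for the stretch, which was covered to 52.3% in WT and 66.7% in del36. On the annotated chromosome the Six2 start site is 203 kb from PE Six3, and 166 kb without the deleted stretch.

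The fragments behind this were next to the Six2 promoter viewpoint. The tallest in del36 was 85689805 to 85690021 with 1267 reads (0.357%) against 0 in WT, at least 1448-fold higher, followed by 85690229 to 85690589 with 1263 (0.355%) against 1 (log2 ratio 12.1, interval 9.60 to 17.4). The first is the fragment beside that viewpoint, where the Six2 promoter libraries had 8892 and 9946 reads. The viewpoint fragment itself had 983 reads in PE Six3 WT and 823 in PE Six3 del36, 0.0190% and 0.0163% of its reads in the Six2 promoter libraries of the same genotype. The PE Six3 viewpoint fragment in turn had 0 reads in the Six2 promoter WT library and 222 in the del36 library. The part of reads passing between libraries in these values was not tested. The third tallest was 85676674 to 85677081 with 1037 reads against 1 in WT (11.8, interval 9.31 to 17.1). Picking by del36 height itself favours lower WT values. At the Six2 start site itself, 85688210 to 85688310 had 0 reads in WT and 30 in del36.

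In WT the Six2 reads of PE Six3 lay on few fragments. They were led by 85666899 to 85667159 with 7935 reads (0.651%), 85678199 to 85678629 with 5576 (0.458%) and 85669879 to 85669937 with 1757 (0.144%), which had 184, 0 and 0 reads in del36, an outcome that picking by WT height itself favours. The last 2 were at least 542-fold and 171-fold lower, and 85676306 to 85676669, with 1303 and 0, at least 127-fold lower. The first 2 were also tall from the Six2 promoter, the first in del36 and the second in WT. Of 63 fragments 23 reached 10 reads in WT and 40 in del36, and the median fragment held 0 and 39 reads. Over all local fragments 840 and 1387 reached 10 reads.

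Fragment by fragment, most local fragments differed by 2-fold or more between the WT and del36 libraries, so such calls by themselves say little about Six3 or Six2. Among fragments with at least 10 reads in either library, with counts below 3 set to 3, the Six2 promoter background was 61.3% at least 2-fold higher and 35.5% at least 2-fold lower in del36, and that of PE Six3 60.7% and 33.2%. From the Six2 promoter 18 of 34 Six3 fragments were higher (52.9%) and 7 lower (20.6%), and 13 of 27 Six2 fragments were higher (48.1%) and 7 lower (25.9%). From PE Six3 11 of 35 Six3 fragments were higher (31.4%) and 8 lower (22.9%), and 30 of 48 Six2 fragments were higher (62.5%) and 15 lower (31.3%). The median log2 ratio, with that floor of 3 reads, for the Six2 promoter was 1.16 over Six3 and 0.42 over Six2, beside 3.41 over all local fragments. From PE Six3 it was 0.23 and 4.65, beside 4.65. The floor stands for unequal shares because local reads differ: 0 reads in both libraries would give -0.53 for the Six2 promoter and 1.78 for PE Six3. Counts and medians for PE Six3 thus lean toward higher in del36, and those for the Six2 promoter toward lower. The size of this lean was not tested.

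Agreement within 2-fold was the rarer outcome, and more frequent over Six3 than over all local fragments. From the Six2 promoter 9 of 34 Six3 fragments (26.5%) and 7 of 27 Six2 fragments (25.9%) were within 2-fold either way, against a background of 3.24%. From PE Six3 it was 16 of 35 (45.7%) for Six3 and 3 of 48 (6.25%) for Six2, against 6.08%. Much of this follows detection in both libraries: 22 of 34 Six3 fragments (64.7%) and 12 of 27 Six2 fragments (44.4%) had 10 reads in both Six2 promoter libraries, against 9.34%. From PE Six3 it was 27 of 35 (77.1%) and 15 of 48 (31.3%), against 15.8%. Fragments within 2-fold and fragments with 10 reads in both Six2 promoter libraries numbered 9 and 22 for Six3, and 7 and 12 for Six2. Over all local fragments they numbered 34 and 98. From PE Six3 they were 16 and 27, 3 and 15, and 117 and 304. Set against detection in both libraries, Six3 stood less far above all local fragments, and Six2 from PE Six3 stood below them. In the nearby genes the shares with 10 reads in both libraries were 4.64% for Camkmt, 9.35% for Srbd1 and 2.34% for Prkce, a protein kinase C gene, from the Six2 promoter. From PE Six3 they were 13.5%, 6.20% and 1.68%.

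**Figure D4:**
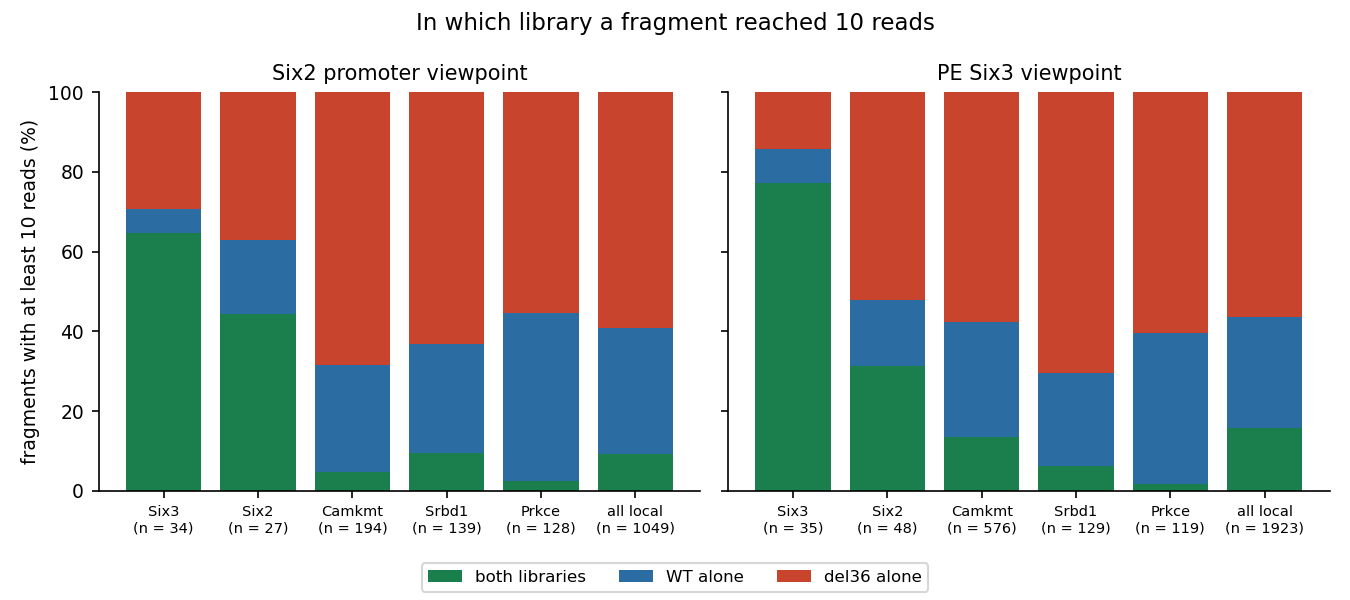
Of the fragments with at least 10 reads in either library of a viewpoint, the share (%) that reached it in both libraries (green), in WT alone (blue) or in del36 alone (red), for Six3, Six2, 3 other genes and all local fragments. Six3 has the highest green part of the groups drawn, 64.7% and 77.1%.

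**Figure D5:**
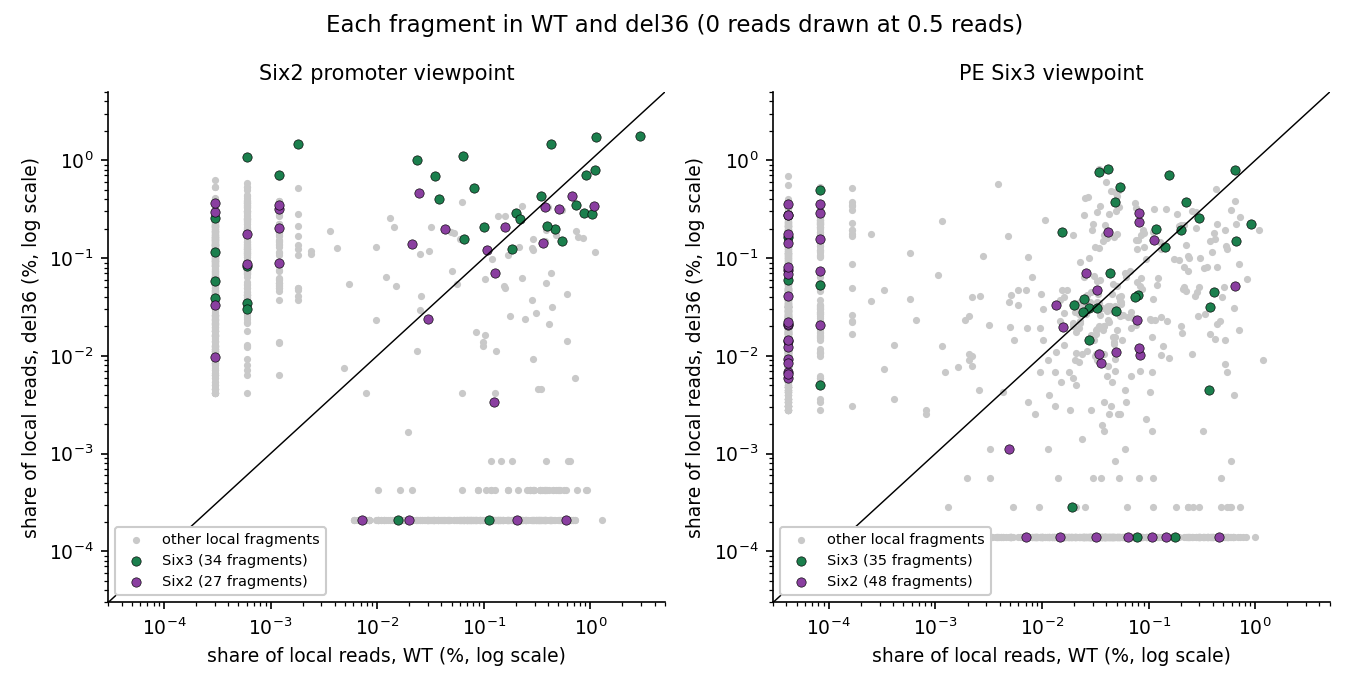
Share of local reads of each fragment in WT (x) and del36 (y), both in % on log scales, with Six3 in green, Six2 in purple, other local fragments in grey and the diagonal as equal share; 0 reads are drawn at 0.5 reads. Most grey points lie in the bands of few or no reads in 1 library, while many Six3 points lie near the diagonal.

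The order of heights among fragments was most alike between the del36 libraries for Six3. Across its 39 kept fragments Spearman's rho was 0.67 between the viewpoints in del36 and -0.02 between them in WT. Between genotypes it was 0.57 for the Six2 promoter viewpoint and 0.37 for PE Six3. For the 40 fragments of the far part of Six2 these values were 0.05 in del36, 0.12 in WT, 0.40 and -0.19. These are descriptions across fragments, which are not independent, and fragment length is shared by all libraries: its rho with reads on Six3 was 0.45 and 0.41 in the del36 libraries and 0.25 and 0.13 in the WT libraries, Six2 promoter first.

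Some fragments were read in both del36 libraries and neither WT library. With 10 reads as the limit there were 8 of 36 in the far part of Six2 (22.2%) and 2 of 38 over Six3 (5.26%), against a background of 4.64%, or 114 of 2459. These shares depend on how often both del36 libraries reached 10 reads, as 15 Six2, 29 Six3 and 216 of all fragments did. Among those, neither WT library reached it for 8 of 15, 2 of 29 and 114 of 216. By this measure Six2 was near the background and Six3 below it. The reverse, both WT libraries and neither del36 library, was seen for 0 Six3 and 0 Six2 fragments, against 1.06%, or 26 of 2459. With 38 and 36 fragments a count of 0 is near that background. The 8 Six2 fragments lay between 85666797 and 85675784. Of these, 85674096 to 85674435 had 880 and 507 reads in the del36 libraries and 0 in both WT libraries, and 85674934 to 85675090 had 837 and 991 against 2 and 0. Over Six3, 85622715 to 85623019 had 2575 and 1761 against 1 and 1, and 85629472 to 85629534 had 616 and 18 against 0 and 1. The del36 libraries had more fragments with 10 reads among all local fragments too, 718 against 429 from the Six2 promoter and 1387 against 840 from PE Six3; the part of this difference in the counts was not tested.

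Part of the Six2 gene and the edge of the Six3 flank lie in the deleted stretch. In WT the 17 Six2 fragments there, in the far end of the body and the downstream flank, held 4471 reads (2.71%) in the Six2 promoter library and 8065 (0.662%) in that of PE Six3. In del36 PE Six3 had 0 reads there, which follows from how the stretch was defined, and the Six2 promoter had 127, of which 125 lay on its last read fragment, 85666700 to 85666737. At the other edge the first fragment inside, 85629639 to 85629693, had 661 reads from the Six2 promoter in del36, 1 in WT and 0 from PE Six3. The fragments just outside, 85629539 to 85629634 and 85666797 to 85666894, had 139 and 422 reads from the Six2 promoter in del36 against 0 and 1 in WT. The edge fragments are 38 to 98 bp long, and where the deletion ends within them was not tested.

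Per kb, Six3 was denser in reads than the measured part of Six2 in every library. That part leaves out the 10 kb around the viewpoint in the Six2 promoter libraries. In the Six2 promoter libraries Six3 held 0.572% (WT) and 0.812% (del36) of local reads per kb, against 0.355% and 0.376% in the far part of Six2, although Six3 lies farther away. From PE Six3, which lies nearer to Six3 than to Six2, it was 0.256% and 0.328% for Six3, and 0.137% and 0.135% for the same far part of Six2. The ratio of Six3 to the far part of Six2 was 1.61 and 2.16 in the Six2 promoter libraries, WT first, and 1.87 and 2.43 in those of PE Six3. Over the whole kept Six2 stretch, measured from PE Six3 alone, Six2 held 0.0850% and 0.140% per kb and the ratio was 3.01 and 2.34, so the order of WT and del36 depended on the part of Six2 taken. Relative to an even spread over the local range, 0.0505% per kb, Six3 stood at 11.3 and 16.1 times in the Six2 promoter libraries and at 5.07 and 6.49 times in those of PE Six3. Camkmt, Srbd1 and Prkce held 0.0102% to 0.0805% per kb in all libraries. Fragments with reads covered 84.7% to 92.5% of the Six3 stretch and 52.3% to 66.9% of the Six2 stretches.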

How the data were processed

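4C-seq libraries of the Six2 promoter and PE Six3 viewpoints in WT and del36 ESC were analysed, grouped by sample title; 13 libraries of the 28 samples were read and 4 used in comparisons. The deposited values are RPM (read counts normalised by library size) per restriction fragment, per the file headers. The submitters' processing notes name HISAT2 and mm10, with no version; read filters are not stated there. Dividing each RPM value by the smallest of its library gave whole reads for 100% of values (tolerance 0.1). Recovered totals were 2238911 to 7730539 reads. A count test was not run, with 1 library per condition and no replicate. The viewpoint was the fragment with most reads, and the deleted stretch the longest run between Six3 and Six2 without reads in the PE Six3 del36 library. Fragments were assigned by midpoint. Ratios of shares have exact conditional (Clopper-Pearson) intervals. Fragments with 0 reads were bounded at 3 reads per library. Gene spans are from a RefSeq table of GRCm38.p6, strands and start sites from its promoter table. Named fragments are, per gene, the 3 with most reads per library, those over gene ends and start sites, and the 3 largest ratios each way per viewpoint among those with at least 10 reads in either library, counts below 3 set to 3; the groups read in all 4 or only in del36 libraries were added after their values were seen. The members, deleted stretch and lists were chosen with earlier results of these data known. Alternatives concerned scaling, the part left out, flanks, tall fragments, covered length and low counts. Reads, ratios and intervals were tested on simulated data with independently drawn reads. These data hold no PCR copies, so they cannot show how well the intervals hold for the real libraries. Python 3.11.15, pandas 2.3.3, numpy 2.4.6, scipy 1.17.1 and matplotlib 3.10.9 were used.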

Additional observations from a re-analysis of the deposited data

Results flagged for a closer look

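Reads were seen outside the main measurement at 2 places. In the library of the Gata6 promoter viewpoint with the TFBS+CGI insert in anterior neural progenitor cells, 399 reads lay on the Six3 stretch, all on the 23-bp fragment 85609879 to 85609901, above the 3 reads that a count of 0 allows. The same fragment had 0 to 2 reads in the other 8 libraries of the Gata6 and Gria1 viewpoints. It made up 3.87% and 1.16% of the Six3 reads from the Six2 promoter in WT and del36 and 1.01% and 7.66% from PE Six3; without it the Six3 shares were 11.6%, 16.9%, 5.33% and 6.36%.

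Six6, an eye and pituitary gene on chromosome 12, had reads on 1 fragment, 72938986 to 72939468, within 1 kb before its annotated start, with 678 reads from the Six2 promoter in WT and 116 in del36, and 0 from PE Six3. It ranked 72 of 11363 fragments off chromosome 17 in WT and 641 of 10923 in del36, where the median was 3 reads.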

How the results depend on the processing

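The log2 ratios of del36 over WT kept their sign under the alternatives that gave a value, except covered length, and moved beyond their counting interval under several; the cause was not tested. No alternative took the deleted stretch out of the reads of which shares are taken. Whether the ratio of 0.08 for Six2 from its promoter keeps its sign without that stretch was not tested. With covered length, as a share of all covered local length, they were -0.27 and -0.39 for Six3 and -0.12 and -0.13 for Six2, from the Six2 promoter and PE Six3. The covered length of each stretch itself was larger in del36. With the deposited RPM they were 1.06 (Six3) and 0.64 (Six2) from the Six2 promoter. With the gene body alone they were 0.70 and 0.18 for Six3 and 0.087 for Six2 from PE Six3; for Six2 from its promoter the measured part is body alone. Without the tallest fragment they were 0.75 and 0.44 for Six3 and 0.34 and 1.06 for Six2. With 25 kb left out they were 0.31 (Six3) and 0.67 (Six2) from PE Six3; this was not run for Six2 from its promoter, since all of the measured part lies within 25 kb. Chosen after seeing the data, the median over fragments gave 1.98 and 0.057 for Six3 and 4.56 for Six2 from its promoter, and no value for Six2 from PE Six3, whose WT median was 0; any overlap with the span gave 0.80 for Six2 from PE Six3. The remaining 27 of 46 values, all counts of fragments past 2-fold among them, stayed within the interval or within 1.5 times. No paired analysis was possible because each condition has 1 library. At 165248 local reads, Six2 promoter WT limits shares most.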
